A study of Mus with 5 samples.

Results

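In mouse CD8 T cells, 402 of the 1160 RARα peaks found without added retinoic acid (RA) on chromosomes 1 to 19, X and Y (34.7%) lay away from BATF and were not called with RA. They were chosen by the presence and absence of peaks in the lists: peaks of the RARα control list with no BATF control peak within 5 kb and no RARα peak of the RA list within 5 kb. The p-value cutoff of the peak caller was stricter for BATF (1e-05) than for RARα (0.001), and the lowest BATF control summit was 12.8. Away from BATF therefore means without a called BATF peak, and a weaker BATF signal could be present. A further 12 peaks of the control list lay on unplaced scaffolds and were left out. The absence of an RA peak was the weaker of the 2 conditions, since 90.4% of the 1160 peaks met it, whereas 37.4% met the condition on BATF. The remaining peaks fell into 647 that were near a BATF control peak but had no RA peak, and 111 with an RA peak within 5 kb. These are called near-BATF and kept sites here, and they are the groups with which the 402 sites are compared.

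RARα is a nuclear receptor that binds DNA as a heterodimer with RXR. Without ligand it recruits corepressors, and RA, a derivative of vitamin A, exchanges these for coactivators. BATF is an AP-1 family transcription factor that pairs with JUN proteins, binds together with IRF4 and is induced when T cells are activated.

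Chromatin immunoprecipitation followed by sequencing (ChIP-seq) was performed on wild-type spleen CD8 T cells that were isolated naive, activated for 24 h with antibodies to CD3 and CD28 plus IL-2, rested for 24 h in IL-2 at 100 U/ml and kept for 1 h with (RA) or without (control) 50 nM RA. The treatment labels name a different interleukin for different samples (IL-7 to IL-10), whereas the methods name IL-2. There was 1 peak list for each antibody and condition, called on 2 pooled alignment files against 1 normal rabbit IgG sample, whose labels do not say whether its cells received RA. The pools held 16424269 to 23110180 fragments, with 22655611 for RARα control and 22475060 for RARα with RA, and the IgG sample held 11410673. The sources do not say whether the 2 pooled files are replicates or runs of 1 sample, and their values are not separate in the lists. No replicate spread could therefore be given, no test between groups or conditions was run, and the Wilson 95% confidence intervals on shares of peaks cover counting error only.

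The 402 sites were mostly low peaks. The number of fragments at the summit had a median of 11 (quartiles 10 and 13, range 9 to 86), against 15 at near-BATF and 23 at kept sites. At 146 sites (36.3%) the summit held 9 or 10 fragments, and at 290 (72.1%) it held 9 to 12, whereas 28.9% of near-BATF sites were that low. Fold enrichment, the summit height over the local IgG level with 1 added to each, had a median of 3.04 (quartiles 2.83 and 3.35), against 3.22 and 4.88 in the other groups. At 92 sites (22.9%) the p-value was at most 1e-05, as it was at 43.9% of all 1160 peaks. At 64 (15.9%) the q-value was at most 0.05, compared with 38.9% of near-BATF and 74.8% of kept sites. These values come from the list that supplied the sites and only describe them. The peaks were also narrow, with a median width of 288.5 bp against 333 and 501 bp.

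**Figure D1:**
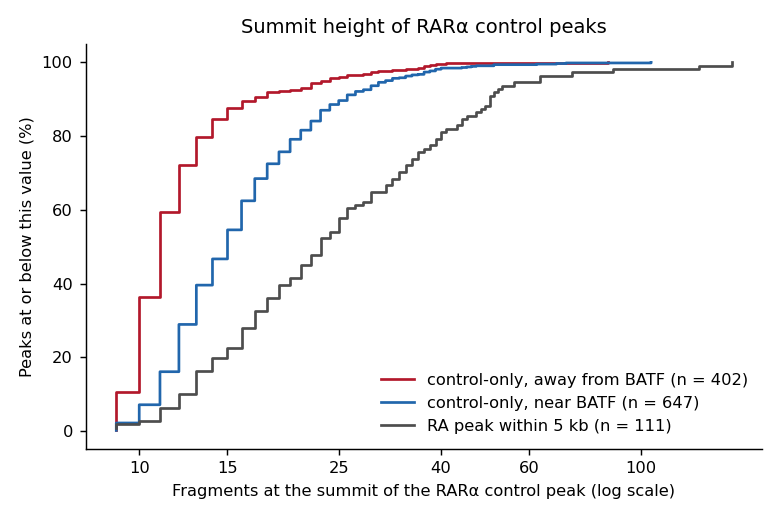
Cumulative share of RARα control peaks (vertical axis, %) by the number of fragments at the summit (horizontal axis, log scale), for the 402 control-only sites away from BATF, the 647 near BATF and the 111 with an RA peak within 5 kb. The curve of the 402 sites rises first, with 72.1% at or below 12 fragments against 28.9% near BATF.

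The IgG level under these sites was usually the lowest the peak caller uses. At 297 of the 402 (73.9%, 95% confidence interval 69.4 to 77.9) it lay within 5% of the floor of 2.88 fragments that the caller sets from the genome-wide average. At near-BATF and kept sites this was so for 34.3% and 33.3%. A peak over the floor needs fewer fragments to pass the same p-value, and this moved with the low summits of the 402 sites.

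For each site, the smallest summit that a p-value of 0.001 would have called in the RA list was calculated from the IgG level there. It was 9 fragments at the median. The control summit exceeded that limit by more than its exact Poisson 95% interval at 31 of the 402 sites (7.71%, 5.49 to 10.7), below the 20.0% of all 1160 peaks and the 20.2% of near-BATF peaks. The interval covers the counting error of the control summit only, since RA counts at uncalled sites are not given. Whether the signal was lower with RA at the 31 sites was therefore not tested. At these 31 sites the summit held 16 to 86 fragments, 18 were intergenic, 12 intronic and 1 exonic, and none was at a promoter. At the other 371 sites the control count cannot be told apart from one at or below the RA limit, so that the missing RA peak does not by itself show a lower signal with RA. No such limit was calculated for the missing BATF control peaks. In addition, peak numbers were skipped in the RARα RA list beside 50 of the 402 sites, and a further 32 lay beyond the first or last peak of a chromosome, where a skip cannot be seen. For the BATF control list these were 11 and 3 sites. Peaks at such numbers were not analysed here, and any of them within 5 kb would remove the site from the set. A skipped RARα RA number stood beside the sites described here at Sp3, Spred2, Ikzf2, Rpl13, Tirap and Unc119, and those at Cttn, Ccr9, C6, Tnfrsf4 and Dnmt3a lay beyond the first or last RA peak. Without all sites of either kind in either list, a choice made after seeing the data, 309 remained, with a median fold of 3.08 and a promoter share of 3.88%.

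The highest of the 402 sites was near Tbc1d5. An intergenic site 3006 bp from Tbc1d5, a Rab GTPase-activating protein of endosomal transport, held 86 fragments (Poisson 95% interval 68.8 to 106.2) at 10.9-fold enrichment, on chromosome 17 from 50729635 to 50730118 (mm10). The IgG level there, 6.95 fragments, was 2.41 times the floor. The RA limit was 17 fragments, the nearest BATF control peak was 204305 bp away and the nearest RARα RA peak 230024 bp away. Thus the tallest site had no other RARα control peak within 100 kb and stood on raised IgG.

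Next in fold enrichment were sites at Map2k5, Cttn and H2-DMb1, with 32 to 37 fragments. Summits of 38, 39 and 41 fragments occurred at 1 site each, at lower fold enrichment. Map2k5, the MAP kinase kinase upstream of ERK5, carried one in intron 13 of 20 on chromosome 9 from 63275185 to 63275451, with 32 fragments (21.9 to 45.2) and 8.17-fold enrichment over an IgG level near the floor. Cttn, which encodes the actin-binding protein cortactin, carried a site in intron 10 of 15 on chromosome 7 from 144446703 to 144447552, with 37 fragments and 7.64-fold enrichment. A site 2294 bp from H2-DMb1, a chaperone that helps load peptide onto MHC class II, also had 37 fragments and 7.64-fold enrichment, on chromosome 17 from 34162523 to 34163340. It lay within the MHC, and the authors' annotation assigned it to 13 genes including the peptide transporters Tap1 and Tap2 and the immunoproteasome subunits Psmb8 and Psmb9. All of these intervals lay above the RA limits of 10 to 12 fragments.

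The remaining sites among the 12 of highest fold ran from 5.20 to 7.47. Transcription factor genes were the nearest at a distance: Sp3, a zinc finger factor, lay 97801 bp from a site at 7.47-fold, and Max, the dimerization partner of MYC, lay 94604 bp from a site at 6.20-fold. Intron 1 of Spred2, an inhibitor of RAS signalling, held a site at 6.28-fold, and intron 1 of Grik4, a kainate receptor subunit, held a site at 6.18-fold. A site at 6.04-fold lay 318300 bp from Usp25, a deubiquitinase, and was assigned to no gene. Sites at 5.93-fold near Ccr9, at 5.61-fold 12465 bp from the complement gene C6, and at 5.20-fold in an intron of Hk2, which encodes a hexokinase, completed the 12. None of the 12 was at a promoter, 5 were intronic and 7 intergenic.

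**Figure D2:**
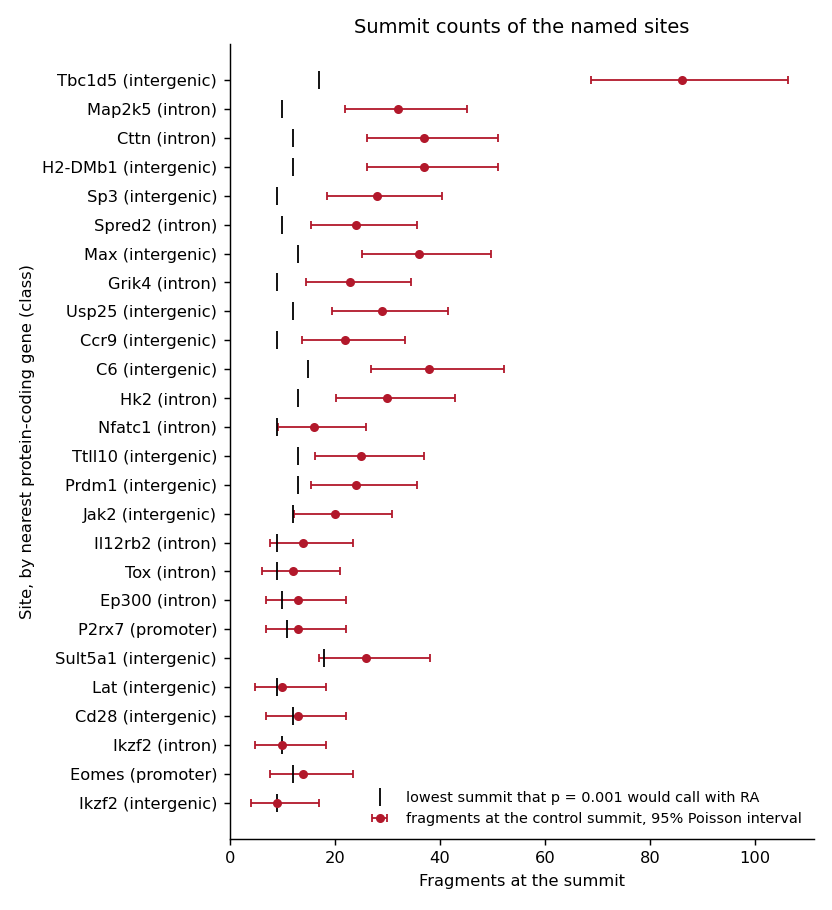
Fragments at the control summit with exact Poisson 95% intervals (red) and the lowest summit that p = 0.001 would call with RA (black bar), for the 12 sites of highest fold and the sites assigned to genes of the fixed lists, in order of fold enrichment and named by the nearest protein-coding gene (Ttll10 is the Tnfrsf4 and Tnfrsf18 site, Sult5a1 the Rpl13 site). The intervals of the 12 sites of highest fold lie above the limit, while those of Il12rb2, Tox, Ep300, P2rx7, Lat, Cd28, Eomes, Rpl13 and Ikzf2 include it.

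Genes of T cell function, retinoid genes and 36 housekeeping ribosomal protein genes were examined through 9 fixed lists. Of the 225 genes in these lists, 85 had an RARα control peak by the authors' annotation. Of these 85, 16 (18.8%) had at least 1 of the 402 sites, compared with 575 of all 1771 genes named in the RARα control list (32.5%). Transcription factor genes contributed 5 of 27 (Eomes, Ikzf2, Nfatc1, Prdm1 and Tox). Genes of T cell receptor signalling contributed 2 of 11 (Cd28 and Lat), cytokine and chemokine receptors 2 of 16 (Cxcr6 and Il12rb2), costimulatory and inhibitory receptors 2 of 3 (Tnfrsf4 and Tnfrsf18, which share 1 site), JAK, STAT and SOCS genes 1 of 7 (Jak2), and retinoid receptors with their coregulators 1 of 5 (Ep300). The list of retinoid metabolism and RAR targets contributed 2 of 8 (Ccr9 and P2rx7), and the ribosomal protein genes 1 of 1 (Rpl13). None of the 7 bound genes of cytokines, chemokines and cytotoxicity had one. The lists were drawn up with earlier results of these data known, so these are counts only.

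Among the transcription factors, the highest site was in intron 9 of Nfatc1, the calcium-responsive factor downstream of the T cell receptor. It held 16 fragments (9.15 to 26.0) at 4.38-fold enrichment, 6204 bp from a BATF control peak. A site 33343 bp from Prdm1, which encodes BLIMP1, a transcriptional repressor in T cells, held 24 fragments at 4.19-fold over raised IgG of 4.96 fragments. The lower Poisson limits of these 2 summits, 9.15 and 15.4 fragments, stood above the RA limits of 9 and 13, at Nfatc1 only just. The sites in an intron of Tox, a factor of T cell exhaustion, and at the promoter of Eomes, a T-box factor of CD8 memory, held 12 and 14 fragments at 3.35-fold and 2.76-fold. Ikzf2, which encodes Helios, had a site in intron 4 of 7 with 10 fragments and another 39177 bp outside the gene with 9, and the nearest BATF control peak was of 53.7-fold enrichment, 28838 bp from the intronic site. The Tox site and the Ikzf2 site outside the gene were annotated as LTR repeats. The Tox, Eomes and Ikzf2 counts did not differ from the RA limit beyond counting error.

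Of the surface receptors and kinases, the intergenic site assigned to Tnfrsf4 and Tnfrsf18, the costimulatory receptors OX40 and GITR, held 25 fragments (16.2 to 36.9) at 4.36-fold enrichment against an RA limit of 13. It was assigned to 12 genes in all, and the nearest, Ttll10, lay 16735 bp away. A site 14735 bp from Jak2, the kinase of several cytokine receptors, was annotated as an old L2 LINE repeat and held 20 fragments at 4.03-fold. Cd28, the main costimulatory receptor, and Lat, the adaptor of the T cell receptor, had sites 43244 and 33669 bp away with 13 and 10 fragments. An intron of Ep300, a histone acetyltransferase recruited by nuclear receptors, held 13 fragments at 3.28-fold, at a place annotated as a SINE repeat. Those at Cd28, Lat and Ep300 were within counting error of the limit, and that at Jak2 was just above it.

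Ccr9 and P2rx7 came from the list of retinoid metabolism and RAR targets. Ccr9 encodes the gut-homing chemokine receptor that RA induces in T cells, and P2rx7 an ATP-gated channel. The Ccr9 site lay 3173 bp from the gene on chromosome 9 from 123763734 to 123764038, with 22 fragments (13.8 to 33.3), 5.93-fold enrichment and IgG at the floor, against an RA limit of 9. Ccr9 had another RARα control peak, at 12.4-fold on the same chromosome from 123740751 to 123741293, where the RA list had a peak of 6.32-fold. The same annotation also named Cxcr6, a chemokine receptor of resident memory T cells, for the site beside Ccr9. At P2rx7, the site covered exon 2 of 13 with 13 fragments and 3.11-fold enrichment, and an RARα RA peak of 4.61-fold lay 7139 bp away, at the gene's other control peak of 5.66-fold. Both genes therefore had a site counted as control-only beside a kept one.

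By annotation, 15 of the 16 genes (93.8%) had a BATF control peak elsewhere and P2rx7 had none. Of the 85 list genes with an RARα control peak, 84 (98.8%) had a BATF control peak, so P2rx7 was the only one without. Of all list genes it was 203 of 225 (90.2%). The share of 93.8% is near both, so the count is no result about the sites. Over all genes, 305 of the 575 with one of the 402 sites (53.0%) also had a BATF control peak, against 1450 of the 1771 genes named in the RARα control list (81.9%), and the rule keeps such peaks away from the sites. Counted by site, 182 of the 317 sites with an assigned gene (57.4%, 51.9 to 62.7) named a gene with a BATF control peak. With the 224 sites that name exactly 1 gene, this was 51.8% (45.3 to 58.2). Many sites were thus away from BATF while a gene assigned to them was not.

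A total of 26 genes had 2 or more of the 402 sites. Adamts6, a secreted metalloprotease gene, and Inpp4b, a phosphoinositide phosphatase gene, had 3 each. The Inpp4b sites lay in its introns, with 22, 11 and 12 fragments, and those of Adamts6 held 22, 11 and 11. Spred2 had 2 in intron 1, of 24 and 23 fragments at 6.28-fold and 4.02-fold. Tnip3, an inhibitor of NF-κB signalling, the cohesin gene Stag1, the Rap1 activator gene Rapgef2 and the ubiquitin ligase gene March3 had 2 each with 9 to 13 fragments. In the natural killer receptor cluster, 2 low sites of 11 fragments were each assigned to Klra12, Klra15 and Klra22. The nearest protein-coding genes were Klra4 and Klra7, and each site carried those other names together, so the names may not stand for separate loci. Genes of this cluster are similar copies, and how reads were placed among them was not tested. The 26 also included 13 genes that share the pair of sites in the MHC. In all, the 402 sites formed 398 separate loci when those within 5 kb were joined, with 4 loci of 2 sites.

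Few of the sites lay at promoters, and many lay far from genes. The authors' annotation placed 20 of the 402 (4.98%, 3.24 to 7.56) at promoters, compared with 19.7% of all 1160 peaks and with 28.4% (25.1 to 32.0) of near-BATF and 22.5% (15.7 to 31.1) of kept sites. Intergenic sites made up 54.5% against 36.8% near BATF, introns 37.6% against 32.1% and exons 2.99% against 2.63%. For 85 sites (21.1%, 17.4 to 25.4) no gene was assigned, against 5.41% near BATF. These 85 were a median of 348406 bp from the nearest protein-coding gene, and the highest of them was the site beyond Usp25. Over 100 kb from a protein-coding gene lay 22.6% of the 402 sites, against 6.49% near BATF.

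The 20 promoter sites were low, at 9 to 21 fragments and 2.41-fold to 3.69-fold enrichment. The examples named in this paragraph were chosen after their values were seen. The highest was at Arl8b, a lysosomal small GTPase gene, with 21 fragments in a SINE repeat, followed by Klra1, a natural killer receptor gene, at 3.61-fold. Olfactory receptor genes, which belong to sensory neurons, were named at 4 of the 20. Within the promoter class the annotation of detail gave 5 of the 20 a start-site label, among them Eomes, Unc119 and Tirap. The Eomes site lay 254 bp outside the gene.

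**Figure D3:**
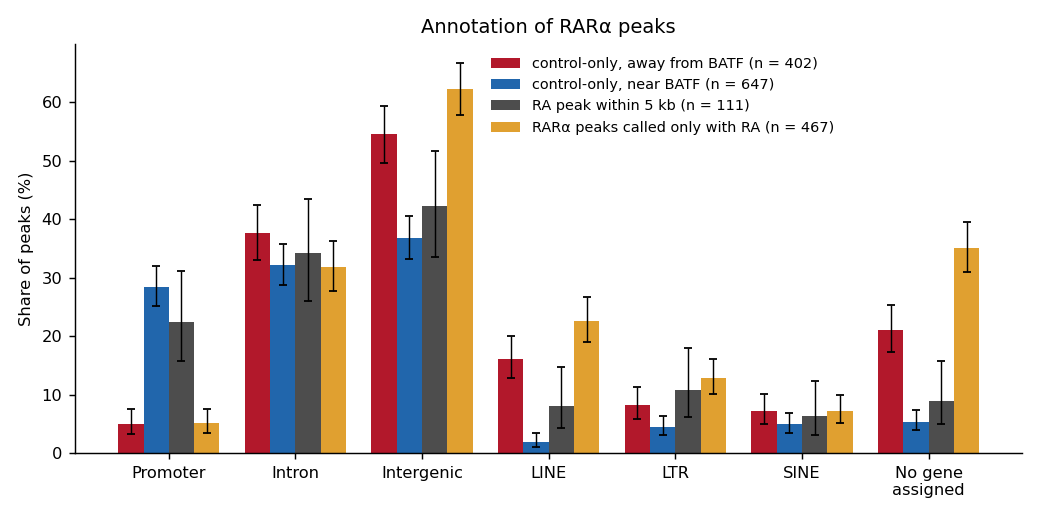
Share of RARα peaks (vertical axis, %) in each annotation class, in 3 repeat classes and with no gene assigned, with Wilson 95% intervals as error bars, for the 3 groups of control peaks and for RARα peaks called only with RA (467). The 402 sites have a promoter share of 4.98% and a LINE share of 16.2%. The peaks called only with RA, which were not filtered by distance to BATF, have 5.14% and 22.7%.

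Repeats were named more often at the 402 sites than at near-BATF sites. The share of the genome that repeats cover was not compared. LINEs are autonomous retrotransposons, and L1Md elements are their young mouse families. The annotation of detail named a repeat at 141 of the 402 (35.1%, 30.6 to 39.9), against 14.1% (11.6 to 17.0) of near-BATF and 27.0% (19.6 to 36.0) of kept sites. LINEs accounted for 65 (16.2%, 12.9 to 20.1), LTR elements for 33 (8.21%) and SINEs for 29 (7.21%). Near BATF, 13 of 647 sites (2.01%, 1.18 to 3.41) were in a LINE, and in the BATF control list 1.54% of peaks were. Young L1Md elements held 16 of the 402 sites (3.98%, 2.46 to 6.37) and 0 of the 647 near BATF, which allows a share of up to 0.590%. The LINE interval of the 402 sites lay above that of the near-BATF sites but overlapped that of the kept sites (8.11%, 4.32 to 14.7). Of the kept sites, 1.80% (0.496 to 6.33) were in L1Md elements, and their LTR share of 10.8% (6.29 to 18.0) was no lower than that of the 402 sites.

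The 65 LINE sites had a median fold of 2.83 and a highest of 4.78, against 3.08 and 10.9 at the other 337 sites. The median summit was 11 fragments in both. The p-value was at most 1e-05 at 10 of the 65 LINE sites, against 82 of the other 337 sites. In all, 49 were intergenic and 16 intronic, and at 55 the IgG level was at the floor. None had a BATF RA peak within 5 kb. The families named most often were L1Md_T with 8 sites and Lx9 with 7, and the SINE family B3 also had 8. Copies of a young family are nearly identical, and reads from them may be placed at any copy. How the aligner placed such reads is not given in the sources used here, and its part in these sites was not tested.

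RARα peaks that were called only with RA give a further comparison. Of these 467 peaks, 5.14% were at promoters, 22.7% in a LINE, 46.9% (42.4 to 51.4) in any repeat, 9.21% (6.91 to 12.2) in an L1Md element and 35.1% (30.9 to 39.6) without an assigned gene. Their median summit was 11 fragments, as at the 402 sites. The promoter and LINE intervals of these peaks overlapped those of the 402 sites, whereas their shares in any repeat, in L1Md elements and without an assigned gene lay above without overlap.

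Since low peaks can differ in class from high ones, the shares were also taken at matched summit height. Among summits of 9 or 10 fragments, 3.42% of the 402 sites were at promoters, against 37.0% of near-BATF sites, and 20.5% against 2.17% were in a LINE. Among summits of 16 or more the promoter shares were 2% (1 of 50) and 18.4% (54 of 294). The LINE shares there were 8% (4 of 50, 3.15 to 18.8) and 1.70% (5 of 294, 0.729 to 3.92), with overlapping intervals. Against near-BATF sites, the promoter share of the 402 sites was lower and the LINE share higher in all 4 height ranges. With IgG at the floor, promoters made up 3.37% of the 402 sites and 33.3% of near-BATF sites, and above it 9.52% and 25.9%. Kept sites did not show this order throughout. Few of them were low, and 1 of 3 at 9 or 10 fragments, 1 of 8 at 11 or 12 and 4 of 14 at 13 to 15 (28.6%, 11.7 to 54.6) were in a LINE, while at 13 to 15 the 402 sites had 14.5%. None of the 3 kept sites at 9 or 10 fragments was at a promoter. The BATF control peaks by which the 402 and the near-BATF sites were divided were themselves at promoters in 58.7% and in LINEs in 1.54%, so the rule itself bears on these shares at any summit height or IgG level.

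**Figure D4:**
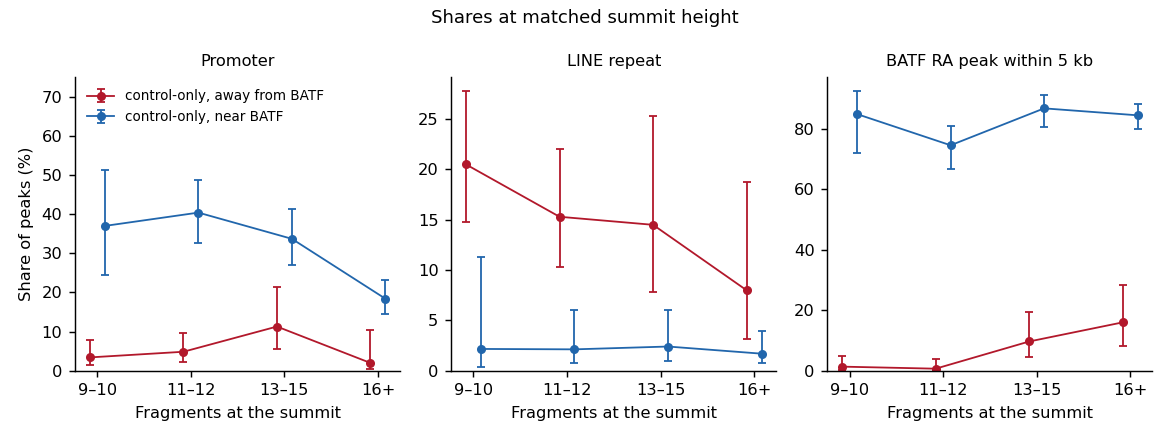
Share of sites (vertical axes, %) at promoters, in LINE repeats and with a BATF RA peak within 5 kb, by fragments at the RARα summit (horizontal axes), for control-only sites away from BATF and near BATF, with Wilson 95% intervals. The promoter share of the sites away from BATF stays below, and the LINE share above, that of sites near BATF in each range.

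BATF in the presence of RA was not used to choose the sites. A BATF peak of the RA list lay within 5 kb of 17 of the 402 (4.23%, 2.66 to 6.67), and 14 of these overlapped it. The share was 54.5% among all 1160 peaks, 82.8% (79.7 to 85.6) near BATF and 71.2% (62.1 to 78.8) at kept sites. It is bound to be low in the 402 sites, because 96.3% of the BATF RA peaks had a BATF control peak within 5 kb and such places were left out. On chromosomes, 368 BATF RA peaks had no such partner, and the 402 sites were within 5 kb of 16 of these (4.35%).

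The 17 sites were often higher ones. Their median RARα fold was 3.86 against 3.02 at the other 385 sites, and in 12 of the 17 the p-value was at most 1e-05. A BATF RA peak was present at 1.37% of sites with summits of 9 or 10 fragments, 0.694% with 11 or 12, 9.68% with 13 to 15 and 16% with 16 or more. At kept sites away from BATF control peaks it was 7 of 32 (21.9%, 11 to 38.8), so that such peaks were also found where RARα was called with RA. Intronic sites made up 10 of the 17, intergenic sites 5 and promoters 2.

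The 6 of highest fold were at Map2k5, Sp3, Spred2, Hk2, Dnmt3a and Mt1. At Map2k5 the BATF RA peak ran from 63275167 to 63275454, almost the same interval as the RARα peak, with 23 fragments and 7.58-fold enrichment. Near Sp3 it reached 27 fragments and 9.26-fold, the highest of the 17. In Spred2 it had 13 fragments and 4.63-fold, and it lay within 5 kb of both RARα sites of that intron. In Hk2, where the site was annotated as a SINE repeat, the BATF RA peak had 24 fragments at 4.70-fold. Dnmt3a encodes a de novo DNA methyltransferase, and its intron 3 carried 17 RARα fragments in the control and 18 BATF fragments with RA. The site 10915 bp from Mt1, a metallothionein gene, was also annotated as a SINE repeat and carried 15 and 16. At these 6 genes the BATF control list had no peak within 5 kb, and its nearest peak was 7632 to 102192 bp from the site.

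Il12rb2, the IL-12 receptor subunit of type 1 responses, had 14 RARα control fragments at 3.86-fold in intron 1 and 27 BATF RA fragments at 8.86-fold at the same place. The site assigned to Rpl13, a ribosomal protein gene, was annotated as an LTR repeat and had 30 BATF RA fragments at 3.78-fold over raised IgG. Over all 17, BATF RA fold ran from 3.78 to 9.26 with a median of 4.63, against a median of 5.29 in the whole BATF RA list, and the summit from 12 to 30 fragments. The lowest summit was 12.8 in the BATF control list, where the values are not whole counts, and 10 fragments in the BATF RA list. The BATF RA summits of several of the 17 were thus close to the lowest in the BATF RA list. The BATF RA pool held 16424269 fragments and the BATF control pool 23110180. Summit heights in these lists are therefore not directly comparable. Whether the BATF control signal was lower at the 17 sites was not tested.

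**Figure D5:**
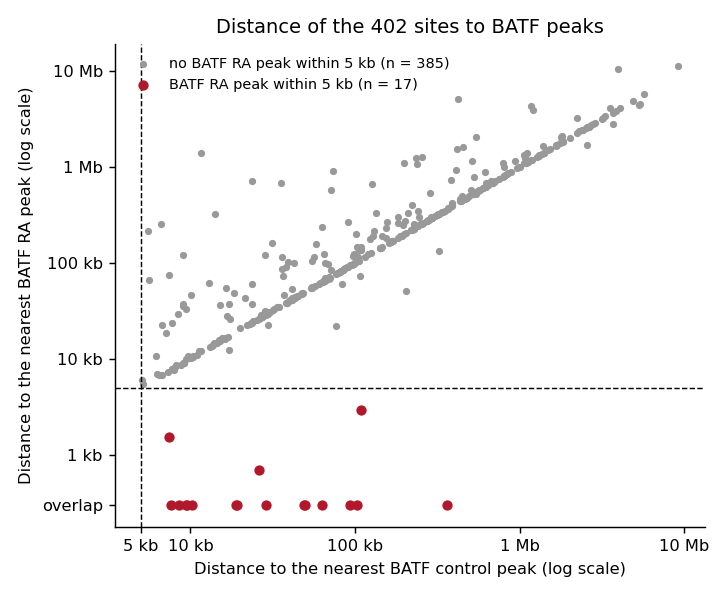
Distance of each of the 402 sites to the nearest BATF control peak (horizontal axis) and to the nearest BATF RA peak (vertical axis), both on a log scale, with overlaps drawn on their own level and dashed lines at 5 kb. The 17 sites with a BATF RA peak within 5 kb (red) lie 7380 to 361662 bp from a BATF control peak, and most other sites fall along the diagonal.

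The distance to the nearest BATF control peak had a median of 111892 bp (quartiles 29834 and 501020). Within 10 kb lay 38 of the sites, within 100 kb 189 (47.0%), and within 1 Mb 343 (85.3%). Sites were also sparse among RARα peaks, since 59 of the 402 (14.7%, 11.6 to 18.5) had another RARα control peak within 100 kb, against 38.0% (34.4 to 41.8) near BATF. The distance to the nearest RARα RA peak had a median of 1333951 bp.

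At the 5 kb limit for BATF, the nearest sites inside the set were at 5091 bp beside Metrnl, 5127 bp in an intron of Asap1 and 5528 bp in an intron of Tex14, with 10, 29 and 26 fragments. The nearest left out were at 4904 bp (Nabp1), 4826 bp (Rpl21) and 4660 bp (Cisd2), with 15, 11 and 19. At the limit for RA, the nearest inside were at 6573 bp (Pisd), 7139 bp (P2rx7) and 9010 bp (Metrnl), with 15, 13 and 10 fragments. The nearest left out were 2 sites on chromosome 13 at 4554 and 3523 bp and a site in Gemin2 at 898 bp, with 13, 22 and 23.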

How the data were processed

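Per the submitters' processing notes, the headers and the methods, the authors aligned reads with Bowtie2, called peaks on mm10 with MACS2 2.2.7.1 against IgG (p-value 0.001 for RARα, 1e-05 for BATF) and annotated them with HOMER. The deposited pileup is a signal, the fragments at the summit. The deposited fold is a ratio, pileup plus 1 over local IgG plus 1, from which the IgG level was recovered. The deposited p-value and q-value are on the −log10 scale. That column of q-values is filled although the headers state they were left out. Recomputed Poisson p-values differed from the deposited −log10 values by at most 0.000366. Distances run between peak edges. The site set and the gene lists were chosen with earlier results of these data known. Named genes are those at the 12 sites of highest fold and the 6 of smallest p, at sites of list genes, at the 6 of highest fold with a BATF RA peak, with 2 or more sites, or nearest the 5 kb limits. Gene positions came from RefSeq GRCm38.p6, which matched 99.3% of the names at the sites. Class, gene and repeat are the authors' annotation, which names 1 feature of detail per peak. Peak numbers skip 121 values in the RARα control list, 130 in RARα RA, 416 in BATF control and 257 in BATF RA, for which no peak was analysed here. Sequence content was not analysed here. The distance and share steps were tested on simulated data. Tools were Python 3.11.15 with scipy 1.17.1, numpy 2.4.6, matplotlib 3.10.9 and pandas 2.3.3. Alternatives varied the distance limit, the thresholds, the repeats and the peak numbers.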

Additional observations from a re-analysis of the deposited data

How the results depend on the processing

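Over 13 alternatives and 10 quantities, 79 of 130 values stayed within limits set around the value reported and 51 did not. The limits were the 95% interval for shares and medians and 1.5 times for counts. With overlap in place of 5 kb, the promoter share was 8.82%, the BATF RA share 16.4%, the distance to BATF 68245 bp and the list genes 25. A 1 kb limit gave a BATF RA share of 12.0% and a distance of 84941 bp, a 10 kb limit 8 list genes, and a 50 kb limit 260 sites, 1.92%, 321537 bp and 1 list gene. The following give, in order, sites, median fold, median −log10 p, median IgG level, BATF RA share, distance to BATF, width and list genes. RARα control peaks with −log10 p of at least 5 gave 92, 3.86, 7.14, 3.20 fragments, 13.0%, 44330 bp, 341.5 bp and 10. The same limit on all lists gave 96, 3.86, 7.14, 3.27 fragments, 13.5%, 40832 bp, 342.5 bp and 10. A q-value of at most 0.05 gave 64, 4.16, 7.91, 3.39 fragments, 18.8%, 29160 bp, 387.5 bp and 9, with a promoter share of 1.56% and a repeat share of 29.7%. A fold of at least 5 gave 13, 6.20, 18.6, 3.97 fragments, 30.8%, 29366 bp, 409.0 bp and 2, with 0% at promoters and 7.69% in repeats. By construction, leaving out sites with a BATF RA peak gave a BATF RA share of 0%, and leaving out repeats gave 261 sites and a repeat share of 0%. Leaving out sites beside skipped peak numbers, an alternative added after seeing the data, left 10 list genes. Likewise, a stricter p, q or fold limit can only remove RARα control peaks. A p or q limit raises the median −log10 p by construction, and a fold limit raises the median fold. A wider distance limit can only remove sites, a narrower one can only add them, and the limit sets the lowest distance to BATF. The cause of the remaining changes was not tested. No paired analysis was possible because each condition gave 1 pooled list. Leaving out replicates was not possible for the same reason. At this depth 371 of 402 summits were within counting error of the RA limit.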
